A study of Mus musculus with 6 samples.

Results

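The p53 target genes described here are 10 listed genes, Mdm2, Ccng1, Trp53inp1, Bax, Bbc3, Pmaip1, Aen, Eda2r, Phlda3 and Zmat3, which were found by symbol among the 55400 genes of the deposited table. All 10 passed the expression minimum, a mean of at least 1 FPKM (read counts scaled by exonic length and by the library total) over the 6 libraries, along with 12199 genes in all. They were measured in wild-type C57BL/6 mouse embryonic stem cells that had been turned into motor neuron progenitors and harvested on day 4, in 3 libraries labelled Setd5sh and 3 labelled control. Cells of both groups had 1 µM retinoic acid and 0.5 µM SAG, an agonist of Sonic hedgehog signalling, from day 2, and 1 µg/mL doxycycline for 36 h before harvest, which the labels describe in the same words for both groups. The name Setd5sh has the form of a short hairpin RNA against Setd5, a SET domain protein, but the labels do not spell this out, nor what the control cells carried, nor whether replicates came from separate cultures. The p-values therefore speak only of the variation among these libraries, which may be technical. In bulk RNA, fewer cells of a type and less RNA per cell cannot be told apart.

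p53 is a transcription factor that stays scarce in unstressed cells because Mdm2, itself a p53 target, marks it for degradation. Damage to DNA, loss of ribosome assembly and other stresses free it from Mdm2, and it then binds DNA at a response element, a short motif repeated side by side, and switches on genes that stop the cell cycle, repair DNA or start apoptosis. Embryonic stem cells and early neural cells are known to hold p53 ready and to die readily when it is activated.

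Setd5 itself stood at 14.4, 13.4 and 12.9 FPKM in Setd5sh replicates 1, 2 and 3, against 22.2, 18.8 and 16.7 FPKM in the control replicates. The groups did not overlap, and the mean in Setd5sh was 70.6% of that in control. The exact two-sided permutation p was 0.1, the smallest that 3 against 3 allows, and the edgeR adjusted p was 0.995. Control replicate 1 was the highest of the 6 libraries. The log2 fold change of Setd5 was -0.51 (SE 0.16), and -0.36 (SE 0.13) without that library. Total counts ran from 19639303 to 27660851 in Setd5sh and from 19871993 to 32046466 in control, and single members had 291 to 7581 counts in a library. The 9 fixed markers of motor neuron progenitors, such as Olig2 and Sox2, summed to 455 to 552 FPKM in Setd5sh and 397 to 467 FPKM in control. The 8 blood and endothelial markers summed to less than 1 FPKM in each library, with Ptprc and Hbb-bt listed at 0 in all 6. The 10 markers of the embryonic fibroblasts used as feeders summed to 39.2 to 42.2 FPKM in Setd5sh and 35.1 to 42.6 FPKM in control, most of it from Fn1, with Lum listed at 0 in Setd5sh replicates 1 and 2. Control replicate 1 stood apart from the other 5 libraries in a way that followed the GC content of the genes, described below.

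RefSeq promoter windows on GRCm38.p6, from 250 bases before to 50 bases after a start site, were at hand for 7 of the 10 genes (10 windows). They were searched for a p53 response element as 2 adjoining motifs of 10 bases with the core CNNG in each and at most 3 of the 20 letters off the consensus, which reads the same on both strands. A match was found in the windows of Ccng1, Aen and Bbc3, that is, in 3 of the 7 genes, against 1.63% of all genes with a window. By window it was 4 of 10, with the same site counted in both Aen windows, against 1.38% of all 32851 windows searched. The 3 windows are shown because they hold a match to the element that p53 is known to bind. The match is in capitals. For Ccng1 the window is chr11:40755237-40755536 on the minus strand, with the match starting at position -195 from the start site and 1 letter off; for Aen it is chr7:78895808-78896107 on the plus strand, at position -121 and 3 letters off; for Bbc3 it is chr7:16309333-16309632 on the plus strand, at position -97 and 3 letters off.
Ccng1: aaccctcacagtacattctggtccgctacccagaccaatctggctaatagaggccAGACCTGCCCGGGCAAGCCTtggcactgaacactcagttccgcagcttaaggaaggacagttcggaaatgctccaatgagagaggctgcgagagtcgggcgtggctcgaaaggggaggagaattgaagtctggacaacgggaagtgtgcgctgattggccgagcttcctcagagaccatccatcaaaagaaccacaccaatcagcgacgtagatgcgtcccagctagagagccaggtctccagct
Aen: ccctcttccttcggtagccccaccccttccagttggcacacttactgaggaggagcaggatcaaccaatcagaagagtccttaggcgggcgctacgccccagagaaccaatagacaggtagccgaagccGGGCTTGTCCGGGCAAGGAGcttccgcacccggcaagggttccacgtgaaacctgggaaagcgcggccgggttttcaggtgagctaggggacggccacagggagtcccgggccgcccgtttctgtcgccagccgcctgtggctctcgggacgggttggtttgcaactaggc
Bbc3: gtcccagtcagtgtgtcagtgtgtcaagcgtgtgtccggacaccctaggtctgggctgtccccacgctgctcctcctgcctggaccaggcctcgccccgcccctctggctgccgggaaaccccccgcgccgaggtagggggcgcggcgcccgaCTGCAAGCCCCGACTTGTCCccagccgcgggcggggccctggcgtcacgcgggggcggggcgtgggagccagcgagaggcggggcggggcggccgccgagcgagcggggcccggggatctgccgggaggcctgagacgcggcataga
The Ccng1 window is 55.7% G and C and holds 14 CG pairs, while the Bbc3 window is 76.0% G and C and holds 34 CG pairs. Windows of Mdm2, Bax, Phlda3 and Eda2r held no match of this kind. The Aen match also lies in the window of its other start site. A match is a description of the letters, and the best known p53 elements of Mdm2 lie in its first intron, outside the window.

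All 10 genes were expressed in every library (plot of FPKM by library). Over the 6 libraries, Bax was the most abundant per length, at a mean of 90.0 FPKM, followed by Ccng1 at 48.4, Phlda3 at 41.0, Aen at 21.5, Bbc3 at 17.2, Zmat3 at 15.9, Mdm2 at 12.7, Trp53inp1 at 10.8, Pmaip1 at 8.54 and Eda2r at 6.16 FPKM. Each gene overlapped in range with its neighbour in this order. Phlda3 was above Aen, and Aen above Bbc3, in each of the 6 libraries, whereas Ccng1 was above Phlda3 in only 2. Bax was above Ccng1 in 5 of the 6, with control replicate 1 the exception.

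**Figure D1:**
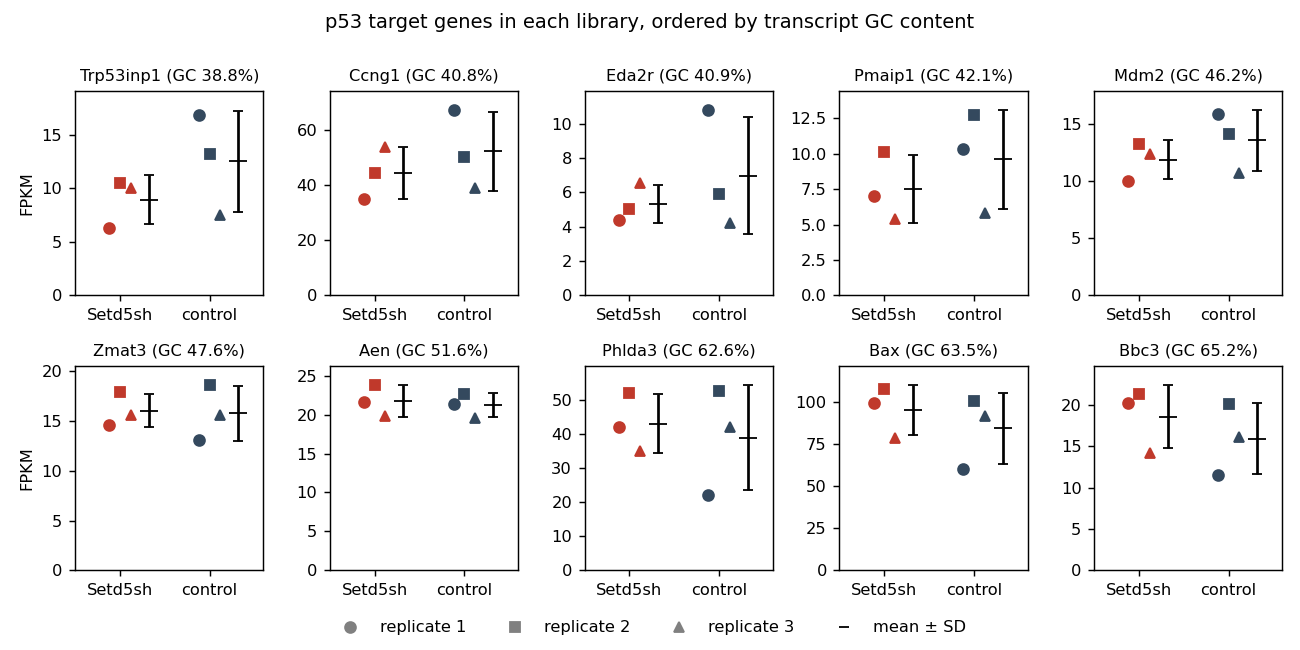
FPKM (vertical axes, from 0) of the 10 p53 target genes in Setd5sh and control libraries, with 1 panel a gene in order of transcript GC content; points are libraries, shaped by replicate number, and bars are the mean and SD of 3. The groups overlap in every panel, and control replicate 1 (dark circles) is at the top for Trp53inp1, Ccng1, Eda2r and Mdm2 and at the bottom for Zmat3, Phlda3, Bax and Bbc3.

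A first set of 3 genes acts back on p53. Mdm2 (ENSMUSG00000020184, chromosome 10, 117688875 to 117710758 on the minus strand; positions are GENCODE M21 on mm10), the ubiquitin ligase that degrades p53, stood at 10.0, 13.3 and 12.4 FPKM in Setd5sh replicates 1 to 3, against 15.9, 14.2 and 10.7 FPKM in control. Control replicate 1 was the highest of the 6 and Setd5sh replicate 1 the lowest, and the log2 fold change was -0.20 (SE 0.20). Ccng1 (chromosome 11, 40748552 to 40755311, minus strand), which encodes cyclin G1, a partner of a phosphatase that acts on Mdm2, stood at 35.0, 44.6 and 54.0 FPKM in Setd5sh and 67.4, 50.4 and 39.2 FPKM in control. The highest of the 6 was control replicate 1 and the lowest Setd5sh replicate 1, and the log2 fold change was -0.25 (SE 0.25). Trp53inp1 (chromosome 4, 11156431 to 11174379, plus strand), a nuclear stress protein that works with kinases of p53, stood at 6.33, 10.5 and 10.0 FPKM in Setd5sh and 16.9, 13.2 and 7.54 FPKM in control. It had the largest difference of the 10, a log2 fold change of -0.51 (SE 0.32), yet control replicate 3 was below Setd5sh replicates 2 and 3. Within pairs of the same number, Trp53inp1 in Setd5sh was 37.3%, 79.8% and 133% of control.

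A second set of 5 genes leads towards cell death. Bax (chromosome 7, 45461697 to 45466898, minus strand) encodes the protein that opens the outer mitochondrial membrane. It stood at 99.5, 108 and 79.1 FPKM in Setd5sh libraries and 60.6, 101 and 92.0 FPKM in control libraries (log2 fold change 0.18, SE 0.21). Of its exonic bases, 192 are shared with the annotated gene Gm45808 on the same strand, so reads there cannot be given to one gene. Bbc3 (chromosome 7, 16308393 to 16318205, plus strand), also called PUMA, binds and disarms the survival proteins of the BCL2 family. It stood at 20.2, 21.3 and 14.2 FPKM in Setd5sh libraries and 11.5, 20.1 and 16.1 FPKM in control libraries (log2 fold change 0.23, SE 0.24), the highest of the 10. For both genes control replicate 1 was the lowest of the 6 libraries, and the other 5 were mixed between the groups.

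Pmaip1 (chromosome 18, 66458533 to 66465565, plus strand), also called NOXA, mainly disarms the survival protein MCL1. It stood at 6.99, 10.1 and 5.42 FPKM in Setd5sh and 10.3, 12.7 and 5.80 FPKM in control. Setd5sh was below control in all 3 pairs, at 67.9%, 79.4% and 93.4%, a pattern that 12.1% of all genes tested showed, and the log2 fold change was -0.36 (SE 0.33). The spread between replicate numbers, with number 2 the highest and number 3 the lowest in both groups, was larger than the difference within any pair. Aen (chromosome 7, 78895854 to 78911209, plus strand), a nuclease that cuts DNA during apoptosis, was the steadiest member. It stood at 21.6, 23.8 and 19.8 FPKM in Setd5sh and 21.4, 22.6 and 19.6 FPKM in control, and was 101%, 106% and 101% of control within pairs. A gene higher in all 3 pairs was also common, at 12.8% of genes tested, and the log2 fold change of Aen was 0.03 (SE 0.14). Eda2r (chromosome X, 97333840 to 97377216, minus strand), a receptor of the tumour necrosis factor family, stood at 4.41, 5.02 and 6.53 FPKM in Setd5sh libraries and 10.8, 5.91 and 4.24 FPKM in control libraries (log2 fold change -0.42, SE 0.35). Control replicate 1 was 2.13 times the mean of the other 2 controls.

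The remaining 2 genes act on signalling and RNA. Phlda3 (chromosome 1, 135766119 to 135769136, plus strand) encodes a small lipid-binding protein that keeps the survival kinase AKT from the membrane. It stood at 42.0, 52.1 and 34.9 FPKM in Setd5sh libraries and 22.1, 52.6 and 42.1 FPKM in control libraries (log2 fold change 0.15, SE 0.29), with control replicate 1 at 0.466 times the mean of the other controls. Zmat3 (chromosome 3, 32334792 to 32366014, minus strand), an RNA-binding zinc finger protein, stood at 14.6, 17.9 and 15.6 FPKM in Setd5sh libraries and 13.1, 18.6 and 15.6 FPKM in control libraries (log2 fold change 0.02, SE 0.16). Replicate number 2 was the highest in both groups for both genes.

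None of the 10 genes passed in edgeR's quasi-likelihood test over 12199 genes, in which 0% of genes passed, with adjusted p of 0.995 to 0.998 for the members. None had an unadjusted p under 0.05, against 149 genes or 1.22% of those tested, and the smallest was 0.152 for Trp53inp1. None passed with DESeq2 or limma either, where 0 genes passed in all. None of the 10 had groups that did not overlap, against 5.21% of genes tested. Of the 10 genes, 5 had a positive log2 fold change, against 42.6% of all genes, and the median was -0.09, against -0.04 over all genes. Neither a gain nor a loss of p53 target mRNA in Setd5sh was detectable with 3 libraries a group, and the standard errors of 0.14 to 0.35 show the precision of each value.

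The sign of the difference went with the base composition of the transcripts. All 4 members with a GC content over 50% (Bbc3 at 65.2%, Bax at 63.5%, Phlda3 at 62.6% and Aen at 51.6%) had a positive log2 fold change. That of Aen was only 0.03 (SE 0.14), and ranged from -0.024 to 0.092 without single libraries. Of the 6 members under 50%, Trp53inp1 (38.8%), Ccng1 (40.8%), Eda2r (40.9%), Pmaip1 (42.1%) and Mdm2 (46.2%) had a negative one, and Zmat3 (47.6%) had the value of 0.02 given above. Control replicate 1 against the other controls also differed with GC content, though not gene by gene in that order (scatter of control replicate 1 by GC content). The log2 ratio, here on FPKM without the 1 added in the scatter, was 0.16 to 1.09 for these 5 members and -0.39 for Zmat3. It was 0.02 for Aen and -1.10 to -0.65 for Phlda3, Bax and Bbc3. That library was the highest of the 6 for Mdm2, Ccng1, Trp53inp1 and Eda2r and the lowest for Bax, Phlda3, Zmat3 and Bbc3. Being at one end of the 6 in this way held for 8 of 10 members and for 68.5% of all genes tested. Over all genes, the median log2 ratio of control replicate 1 to the other controls, on FPKM + 1, was 0.56 for the 3048 genes with the lowest GC content (18.1% to 45.1%) and -0.41 for the 3048 with the highest (54.8% to 78.3%). The median log2 fold change of Setd5sh over control was -0.28 and 0.06 for these sets, and 0.05 and -0.04 without control replicate 1.

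**Figure D2:**
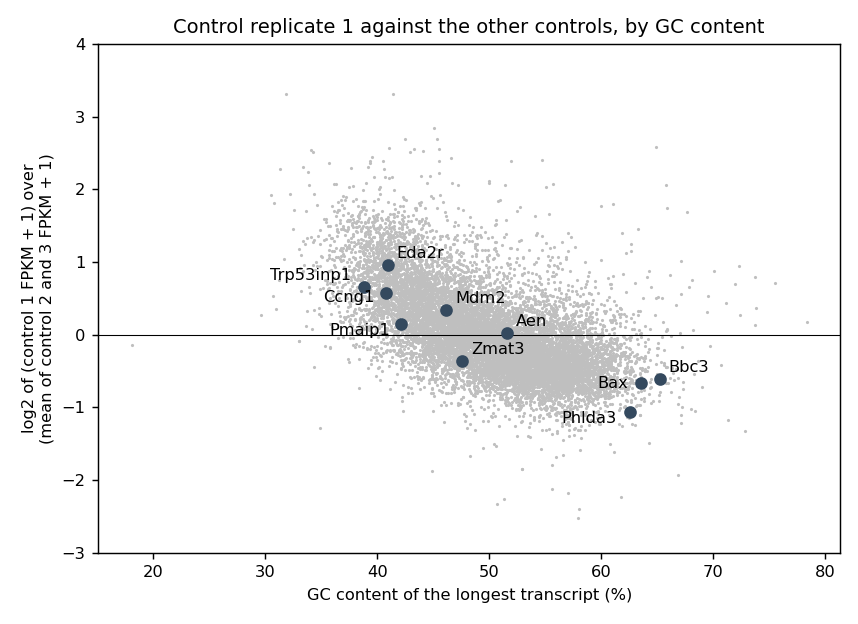
Log2 ratio of control replicate 1 to the mean of control replicates 2 and 3, on FPKM + 1 (vertical axis), against the GC content in percent of each gene's longest transcript (horizontal axis); grey points are the genes tested and dark points the 10 p53 target genes. The cloud slopes down, with Eda2r, Trp53inp1 and Ccng1 above 0 and Bax, Bbc3 and Phlda3 below.

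Without control replicate 1, the 10 log2 fold changes lay between -0.27 and 0.10, against -0.51 and 0.23 with all 6 libraries, and their median size regardless of sign was 0.07 against 0.22 (plot of fold changes under 3 fits). Over all genes tested this median size was 0.13 without that library and 0.15 with it. Trp53inp1 was then at -0.18 (SE 0.25) and Mdm2 at -0.03 (SE 0.16). Bbc3 was at 0.07 (SE 0.19) and Bax at 0.02 (SE 0.15). None of the 10 had an unadjusted p under 0.05 without that library, against 2.96% of genes tested. Ccng1, Phlda3, Zmat3 and Eda2r changed sign, to 0.02 (SE 0.18), -0.11 (SE 0.17), -0.07 (SE 0.14) and 0.10 (SE 0.20). With smooth trends on GC content and length removed from each library, an alternative added after seeing the data, the range was -0.13 to 0.22, Trp53inp1 was at -0.13 (SE 0.22) and Eda2r at -0.07 (SE 0.15), and Bbc3 and Bax were at 0.22 (SE 0.14) and 0.18 (SE 0.11), near their values with all 6 libraries. The part of GC content in the difference between the groups was not tested beyond these fits.

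**Figure D3:**
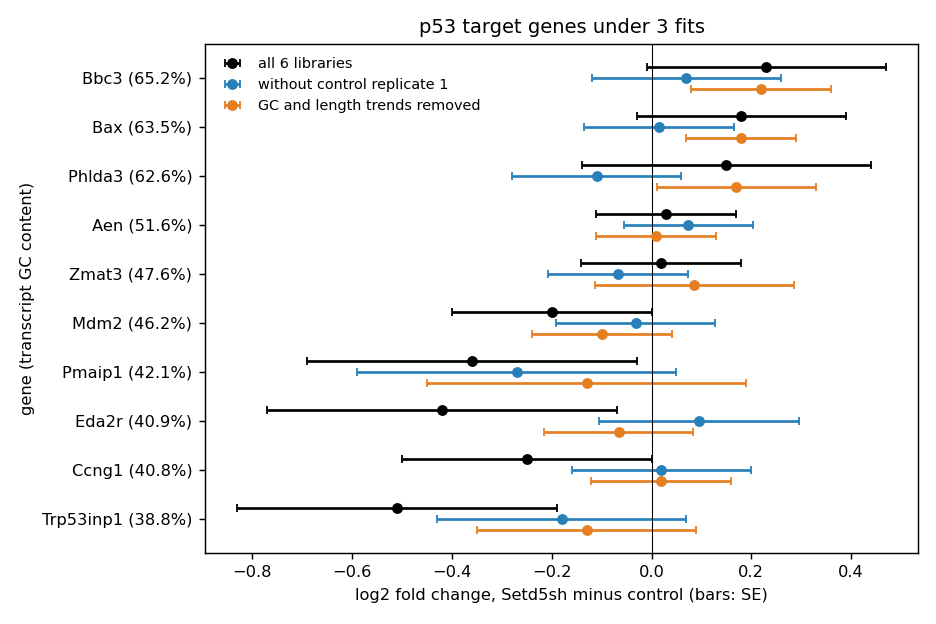
Log2 fold change, Setd5sh minus control (horizontal axis, bars are SE), of each p53 target gene, ordered by transcript GC content, with all 6 libraries (black), without control replicate 1 (blue) and with GC and length trends removed (orange). With all 6 libraries the values run from -0.51 for Trp53inp1 to 0.23 for Bbc3, and without control replicate 1 from -0.27 to 0.10.

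The libraries numbered 2 were the highest of both groups for 6 of the 10 members, against 22.6% of all genes tested. The summed level of the 10 was 260, 307 and 252 FPKM in Setd5sh replicates 1 to 3 and 250, 311 and 253 FPKM in control, with number 2 the highest in both groups (bars of summed levels). The 4 members with the higher GC content summed to 183, 205 and 148 FPKM in Setd5sh and 116, 196 and 170 FPKM in control, and the 6 others to 77.3, 101 and 104 FPKM in Setd5sh and 134, 115 and 83.0 FPKM in control. Setd5sh replicate 2 was the highest Setd5sh library for 8 of the 10 genes, all but Ccng1 and Eda2r, against 40.7% of all genes tested. Control replicate 2 was above control replicate 3 for all 10, against 58.8% of genes tested. Both held for 8 of 10 members, for 22 of the 41 other p53 target genes tested, and for 30.1% of all genes. This pattern was noticed in the data and has no test of its own.

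Markers of pluripotent cells, such as Pou5f1 and Nanog, were among several lists that were highest in the libraries numbered 2. Only 3 of the 8 pluripotent markers reached the mean of 1 FPKM set for the genes tested. All 8 were the highest in the replicate numbered 2 of each group. They summed to 27.8, 62.3 and 9.13 FPKM in Setd5sh replicates 1 to 3 and to 19.0, 83.6 and 27.6 FPKM in control, most of it from Dppa5a, and Tdgf1 was listed at 0 in Setd5sh replicate 1. Young-neuron markers summed to 83.7, 62.4 and 85.1 FPKM in Setd5sh and 51.6, 51.8 and 50.2 FPKM in control. Of these 9 markers, 6 were tested, with 5 positive and 1 negative and log2 fold changes from -0.61 to 1.15. Endoderm markers, 8 in all, summed to 48.5, 67.6 and 49.5 FPKM in Setd5sh replicates 1 to 3 and 52.8, 80.4 and 58.7 FPKM in control. Sums of the fibroblast markers and of the BCL2 family and caspases were also highest in number 2 of both groups. Those of the motor neuron progenitor markers were not. The part of any of these lists in the levels of the p53 target genes was not tested.

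**Figure D4:**
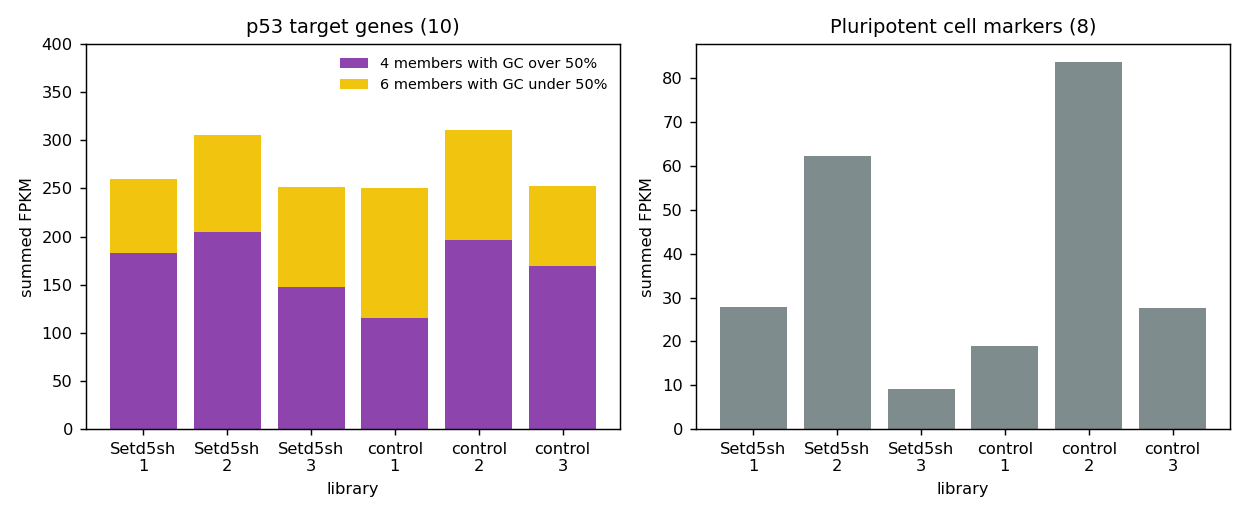
Summed FPKM (vertical axes, from 0) in each library of the 10 p53 target genes, split into the 4 with a transcript GC content over 50% and the 6 under it (left), and of 8 pluripotent cell markers (right). The libraries numbered 2 are the tallest in both groups in both panels, at 307 and 311 FPKM for the p53 target genes.

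Of 25 genes listed as p53 itself and its regulators, 23 were tested and 0 passed in either direction, with 10 positive and 13 negative and a median log2 fold change of -0.04. Trp53, which encodes p53, averaged 72.5 ± 10.8 FPKM in Setd5sh libraries and 59.9 ± 19.3 FPKM in control libraries (mean ± SD of 3, here and for the averages below). Its log2 fold change was 0.27 (SE 0.24), and 0.10 without control replicate 1. Its level does not show p53 activity, which is set mainly on the protein. Mdm4, the partner of Mdm2 that blocks p53, averaged 6.64 ± 0.802 FPKM in Setd5sh libraries and 9.65 ± 5.73 FPKM in control libraries (log2 fold change -0.56, SE 0.40), which was 0.05 without control replicate 1. Ppm1d, a phosphatase that turns off p53 and its kinases, averaged 12.7 ± 0.625 FPKM in Setd5sh libraries and 12.7 ± 1.13 FPKM in control libraries. The damage kinases Atr and Chek1 stood at log2 fold changes of -0.93 (SE 0.57) for Atr and -0.54 (SE 0.39) for Chek1, and at 0.20 and 0.11 without control replicate 1. Daxx and Trp53bp2, which bind p53 or Mdm2, were at 0.22 (SE 0.16) and 0.12 (SE 0.13), and at 0.11 and 0.12 without it. Atr shares 178 exonic bases with Gm24004 on the same strand, and 726 and 462 with 1700065D16Rik and Gm16794 on the other.

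Of 50 other p53 target genes, 41 were tested and 0 passed, with 24 positive, 17 negative and a median of 0.04. Of these, 2 had an unadjusted p under 0.05, both with higher values in Setd5sh, against 1.22% of all genes in either direction. Groups did not overlap for 3 of the 41, or 7.32%, against 5.21% of all genes. Sesn2, a stress protein that restrains growth signalling and that the integrated stress response also switches on, averaged 72.9 ± 30.2 FPKM in Setd5sh libraries and 35.1 ± 5.68 FPKM in control libraries (log2 fold change 1.05, SE 0.33), with Setd5sh replicate 2, at 38.1 FPKM, below control replicate 3, at 41.1 FPKM. Plk2, a kinase of the centriole cycle, averaged 7.15 ± 0.931 FPKM in Setd5sh libraries and 5.07 ± 1.02 FPKM in control libraries (log2 fold change 0.49, SE 0.19), and its groups did not overlap. Plk3, a related kinase, was at 0.31 (SE 0.16) and shares 84 exonic bases with Tctex1d4 on the other strand. Its groups did not overlap either, but only narrowly, as Setd5sh replicate 2 and control replicate 3 both round to 26.2 FPKM. On the other side, Sesn1, the paralog of Sesn2, averaged 5.41 ± 0.585 FPKM in Setd5sh libraries and 6.69 ± 0.255 FPKM in control libraries (log2 fold change -0.32, SE 0.16), and its groups did not overlap. The repair genes Ddb2, which finds ultraviolet damage, and Polk, a polymerase that copies past lesions, were at -0.59 (SE 0.33) and -0.77 (SE 0.40). Without control replicate 1, Polk was at -0.22, whereas Ddb2 was at -0.63. Sesn2, Plk2, Plk3 and Sesn1 were then at 1.07, 0.40, 0.25 and -0.31. Ddb2 shares 652 exonic bases with Acp2 on the other strand, so its reads may not all be its own.

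In the 3 further lists, 0 genes passed. Of 25 genes of the BCL2 family and caspases, 24 were tested, with 11 positive and a median log2 fold change of -0.01. Hrk, a neuronal killer protein of the family, was at 0.69 (SE 0.40), Bik at 0.33 (SE 0.31) and the survival gene Bcl2l1 at 0.17 (SE 0.15), and without control replicate 1 they were at 1.01, 0.36 and 0.07. Hrk in Setd5sh replicate 2, at 0.97 FPKM, was within the control range of 0.84 to 1.5 FPKM. Bik rests on only 29 to 71 counts in a library. The caspase inhibitors Birc2 and Xiap were at -0.53 (SE 0.34) and -0.55 (SE 0.40), and at -0.04 and 0.10 without control replicate 1. Of 31 genes of DNA damage sensing and repair, 29 were tested, with 7 positive, 22 negative and a median of -0.16, which was 0.04 without control replicate 1. Prkdc, Xrcc4 and Rad50, which act on broken ends, were at -0.85 (SE 0.46), -0.47 (SE 0.25) and -0.58 (SE 0.37), and at -0.06, -0.26 and 0.04 without control replicate 1. Mdc1 and Ercc1 were at 0.09 (SE 0.13) and 0.12 (SE 0.18), and at 0.10 and 0.04 without it. Xrcc4 shares 112 exonic bases with Tmem167, and Ercc1 shares 106 with Cd3eap, each on the other strand. Of 24 integrated stress response genes, 21 were tested, with 19 positive and a median of 0.80. Of the 21, 9 were at an unadjusted p under 0.05, all with higher values in Setd5sh, against 1.22% of all genes in either direction. Groups did not overlap for 2 of the 21, or 9.52%, against 5.21% of all genes. The summed level of the 24 was 1570, 850 and 1490 FPKM in Setd5sh replicates 1 to 3 and 852, 773 and 839 FPKM in control, so Setd5sh replicate 2 stood within the range of the controls and apart from the other Setd5sh libraries. This list, which shares Sesn2 with the p53 targets, had a median of 0.94 without control replicate 1, against -0.01 for the 10 p53 target genes.

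The genes outside these lists whose log2(FPKM + 1) values over the 6 libraries were most like the mean of the members were Scarb2, Lonrf1, Rcor1, Gm48667 and Jmjd7, with Pearson r of 0.993, 0.991, 0.990, 0.985 and 0.982, chosen as the highest among all genes tested. Their log2 fold changes were -0.09 (SE 0.16), -0.07 (SE 0.16), -0.14 (SE 0.17), -0.34 (SE 0.68) and -0.13 (SE 0.30). Gm48667 rests on 3 to 19 counts in a library, so its level and its likeness are uncertain. Of the members, each of which is itself part of that mean, Pmaip1 was the most like it, at 0.919, and Bax the least, at 0.154. Jmjd7 shares 1307 exonic bases with Gm28042 on the same strand, so its value is uncertain too. Rcor1 shares 53 with Gm48632, also on the same strand.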

How the data were processed

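RNA of 6 libraries was measured by sequencing after poly-T selection and random priming, per the labels' protocols. The authors deposited a table holding, per gene and library, raw read counts and FPKM, and each gene's exonic length. Per the submitters' processing notes, HISAT2, SAMtools, HTSeq, DESeq2 and mm10 were used; for their versions, the annotation and the strand setting, the sources used here hold nothing. As checked on the file, the deposited FPKM follow from count, length and column total to within 0.005.

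Symbols, positions and GC content (longest transcript) came from GENCODE M21, which holds 99.5% of the identifiers. Genes with a mean FPKM of at least 1 were tested on the deposited counts with edgeR 4.0.16 (TMM, quasi-likelihood F test, R 4.3.3), with Benjamini-Hochberg adjustment over 12199 genes at 0.05, two-sided; SEs are the fold change over the root of F. DESeq2 1.42.0 and limma 3.58.1, on log2(FPKM + 1) or log2(FPKM + 0.1), were alternatives, with other scalings, filters, a replicate block, GC and length offsets, and each library left out. Fits were tested on simulated data. No set test was made. Figures used matplotlib 3.10.9.

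The members and lists were chosen with earlier results of these data known. Named genes are the 10 members, Setd5, Trp53, Mdm4, Ppm1d, up to 3 genes of smallest p in each direction from the p53 regulators, other p53 targets, BCL2 family and caspases, and DNA damage lists (none from the stress response list), and the 5 genes most like the members; 2 genes that this rule names are not reported here, and marker genes illustrate lists. Both groups share replicate numbers 1 to 3. Deviations from the group means correlated at 0.185, 0.69 and 0.127 for same-numbered libraries, all over 0.1, and on that basis same-numbered libraries were treated as pairs, which the labels do not state; Setd5sh replicate 3 correlated more with control replicate 1, at 0.191. Replicates of a group differed by more than sampling noise (chi-square over degrees of freedom 24.6 or more).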

Additional observations from a re-analysis of the deposited data

How the results depend on the processing

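No member passed the adjusted threshold under any of the 16 alternatives, where the smallest adjusted p of a member was 0.566. The count of all genes passing was 0 except with no low-expression filter, where it was 73. No member was among them, but Sesn2 was, at a log2 fold change of 1.12 (SE 0.22, edgeR adjusted p of 0.000761). The SE of Sesn2 was 0.33 with the filter. Those of Atr and Zmat3 were 0.57 and 0.16 with the filter and 0.23 and 0.22 without it. The cause was not tested. No member had an unadjusted p under 0.05 except without control replicate 3, where 1 did, Trp53inp1 (range 0 to 1 without single libraries). The replicate block changed no call, with Trp53inp1 at -0.45, Pmaip1 at -0.34 (unadjusted p of 0.0989) and Setd5 at -0.50. The member median was -0.092 in the main fit. It ran from -0.19 without control replicate 3 to 0.014 with GC and length trends removed, so its sign was not fixed. These shifts were smaller than the SD of 0.2 between replicates in the mean level of the members.

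Of 624 values of 39 named genes under these alternatives, 29 turned sign. Without single libraries the log2 fold change ranged from -0.42 to 0.02 for Ccng1, -0.11 to 0.39 for Phlda3, -0.067 to 0.12 for Zmat3, -0.024 to 0.092 for Aen, -0.68 to 0.095 for Eda2r, -0.9 to 0.054 for Mdm4, -0.039 to 0.026 for Ppm1d, -1.29 to 0.2 for Atr, -0.78 to 0.11 for Chek1, -0.85 to 0.1 for Xiap, -0.83 to 0.044 for Rad50, -0.2 to 0.0082 for Scarb2 and -1.0 to 0.042 for Gm48667. With GC and length trends removed, with and without the replicate block, Ccng1 was at 0.013 and 0.019, Xiap at 0.026 and 0.025, and Scarb2 at 0.0084 and 0.0015. Ppm1d, near 0 throughout, was at 0.0025 and 0.0022 in these fits, 0.0022 and 0.0023 with DESeq2 size factors and DESeq2, 0.054 with no filter and 0.044 with edgeR's own filter. The lowest count of a member in a library was 291.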
